A study of Homo sapiens with 18 samples.

Results

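The genes described here encode factors that act on blood or lymph vessels: the VEGF family ligands VEGFA, VEGFB, VEGFC and PGF, the neuropilins NRP1 and NRP2, ESM1, ANGPTL4, EDN1 and THBS1. They were taken by gene symbol from the table of read counts, and all 10 were found among its 19901 genes and passed the filter on low counts. mRNA had been sequenced from 3 established head and neck squamous cell carcinoma (HNSCC) lines, Detroit 562, FaDu and SCC-9. SCC-9 is a tongue carcinoma line and FaDu a hypopharyngeal carcinoma line, both of primary tumors, whereas Detroit 562 was taken from a metastasis whose primary lay in the pharynx. In each line 3 libraries of untreated cells (control) and 3 libraries of cells given 50 ng/mL hepatocyte growth factor (HGF), the ligand of the Met receptor, were analysed, 18 in all. The time of treatment is 16 h by the sample records and 48 h by the record of the series. The study's methods give 16 h for the sequenced cells. The medium of SCC-9 (DMEM F12 with hydrocortisone) was not that of the other lines (MEM-α), so medium and line cannot be told apart in any comparison with SCC-9. Each tumor site was represented by a single line. In bulk mRNA a smaller share of cells making a transcript and less of it per cell cannot be told apart.

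Positions are on GRCh38, as the count table gives them. VEGFA lies on chromosome 6 from 43770184 to 43786487, VEGFB on chromosome 11 from 64234538 to 64238793, VEGFC on chromosome 4 from 176683538 to 176792727 and PGF on chromosome 14 from 74941834 to 74955784. ESM1 lies on chromosome 5 from 54977864 to 55022671, ANGPTL4 on chromosome 19 from 8363289 to 8374373, EDN1 on chromosome 6 from 12290363 to 12297194 and THBS1 on chromosome 15 from 39581079 to 39599466. NRP1 lies on chromosome 10 from 33177492 to 33336262 and NRP2 on chromosome 2 from 205681990 to 205798133.

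VEGF ligands are secreted proteins that bind receptor tyrosine kinases on endothelial cells. VEGFA is the main driver of the sprouting of blood vessels, VEGFC of lymphatic vessels, and VEGFB and PGF bind VEGFR1. The neuropilins are co-receptors that bind VEGF ligands and class 3 semaphorins and are also made by carcinoma cells. ESM1 is a secreted proteoglycan best known from the tip cells of sprouting vessels, ANGPTL4 a secreted inhibitor of lipoprotein lipase, EDN1 the precursor of the vasoconstrictor endothelin-1, and THBS1 a matrix protein known as an inhibitor of vessel growth.

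With HGF, ESM1 and ANGPTL4 were higher in every same-numbered pair of HGF and control library in all 3 lines, 9 of 9 pairs each. ESM1 was about 15 times higher in Detroit 562. VEGFC was about 2 times higher in Detroit 562 and FaDu, where the main fit did not call it and the fit that pairs the libraries did, and was called in SCC-9 by neither. In FaDu the paired fit also called NRP1, NRP2 and VEGFA, of which DESeq2 without pairing called NRP1 and NRP2. THBS1 was called in Detroit 562. VEGFB and EDN1 had no call in any line. Without HGF, EDN1, NRP2 and THBS1 were 35.7, 23.4 and 11.2 times higher in Detroit 562 than in FaDu, and ANGPTL4 was lower in Detroit 562 than in SCC-9 by a log2 of -5.17.

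The total count per library lay between 35304770 and 44003970, and counts are given below after scaling to a common library size (normalized counts, by the TMM method). The test was the quasi-likelihood test of edgeR, and adjusted p values are by Benjamini and Hochberg's method over 15475 genes. Calls needed an adjusted p below 0.1 together with a log2 difference of 0.4 or more, up or down. The replicate numbers were taken to pair the libraries, and the model was also fitted with the numbers as blocks inside each line. This is named the blocked fit. In both fits all lines share an estimate of the spread. In Detroit 562 the third replicates stood apart: the chi-square per gene between control libraries was 7.91 for replicates 1 and 2, and 50.5 and 33.5 for replicate 3 against them. In FaDu these values were 23.0, 43.1 and 41.4 for the controls and 35.3, 51.6 and 75.9 with HGF. Epithelial markers were high throughout, with a summed normalized count of 144296 to 650689 over 8 genes. The summed count over 10 endothelial markers was 103 to 436. Over 8 fibroblast markers it was 148 to 5631, and over 5 leukocyte markers 815 to 2628, both highest in SCC-9. ROBO4 was at 0 in every Detroit 562 library and PECAM1 had at most 12 counts there. In Detroit 562 the endothelial sum was 268 to 289 in controls and 307 to 403 with HGF, where ESAM was called higher (log2 0.85) and VWF lower (log2 -2.12), and the epithelial markers CDH1, KRT5 and KRT8 were called lower. Reads of mitochondrial genes were 1.45% to 1.84% of counts in Detroit 562 controls and 0.837% to 1.19% with HGF. In FaDu the blocked fit called 4 of 6 endothelial markers tested, ERG higher (log2 0.61) and CDH5, VWF and ESAM lower (log2 -0.86, -1.32 and -0.94). It also called CD68 higher, of 2 leukocyte markers tested, and KRT5 and COL1A1 lower, of 8 epithelial and 5 fibroblast markers tested. Of all genes tested, the blocked fit called 2.0% higher and 3.6% lower in FaDu. The main fit called 6.16% higher and 11.7% lower in Detroit 562. The part of these shifts in markers and mitochondrial reads in the results was not tested.

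Of the 10 genes, 8 had a promoter sequence in the RefSeq table (GRCh38.p14), and VEGFA and NRP1 were named without one. The 250 bases before the transcription start were searched on both strands for ACGTG, the core of the hypoxia response element, TGANTCA, the AP-1 site, CCGGAA, an ETS core, and GGGCGG, the GC box. Over all 35116 promoters of the table these occur in 18.5%, 6.57%, 14.5% and 42.6%. The promoters of ANGPTL4, VEGFC and THBS1 are shown because these genes responded to HGF and their windows held no annotated exon. They lie at chr19:8363905-8364154 on the plus strand, chr4:176792923-176793172 on the minus strand and chr15:39580829-39581078 on the plus strand, and capitals mark the motif matches.
ANGPTL4: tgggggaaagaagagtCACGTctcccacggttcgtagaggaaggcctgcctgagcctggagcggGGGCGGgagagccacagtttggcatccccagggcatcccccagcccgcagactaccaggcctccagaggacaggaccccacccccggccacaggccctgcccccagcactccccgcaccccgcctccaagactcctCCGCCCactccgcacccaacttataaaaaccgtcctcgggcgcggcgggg
VEGFC: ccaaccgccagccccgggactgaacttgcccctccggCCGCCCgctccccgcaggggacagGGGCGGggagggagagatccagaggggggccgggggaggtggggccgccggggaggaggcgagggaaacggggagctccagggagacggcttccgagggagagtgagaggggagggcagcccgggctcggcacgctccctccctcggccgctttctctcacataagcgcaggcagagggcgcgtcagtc
THBS1: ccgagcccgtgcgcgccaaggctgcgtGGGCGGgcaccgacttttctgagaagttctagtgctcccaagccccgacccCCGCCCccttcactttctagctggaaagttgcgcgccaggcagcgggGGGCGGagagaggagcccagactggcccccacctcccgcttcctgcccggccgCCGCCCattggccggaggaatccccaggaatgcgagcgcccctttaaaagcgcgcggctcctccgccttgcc
The ANGPTL4 window held 1 ACGTG, 234 to 230 bases before the start and on the minus strand, and 2 GC boxes. This window lies inside the annotated extent of ANGPTL4, which starts at 8363289, but in no exon of it. The VEGFC window held 2 GC boxes and the THBS1 window 4. ESM1 (chromosome 5, minus strand) had 1 ACGTG at 18 to 14 bases before its RefSeq start and no GC box, in a window that lies within an exon of a longer annotated transcript of ESM1 and so is not shown. TGANTCA and CCGGAA occurred in the windows of 0 of the 8 genes. The hypoxia response element core was not limited to genes that responded to HGF. EDN1, which had no HGF call in any line, held 2 matches in its window at chr6:12287769-12288018 and 1 at chr6:12290111-12290360. VEGFB, VEGFC, PGF, NRP2 and THBS1 held none. A match or its absence describes these letters alone and not the binding of a factor.

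**Figure D1:**
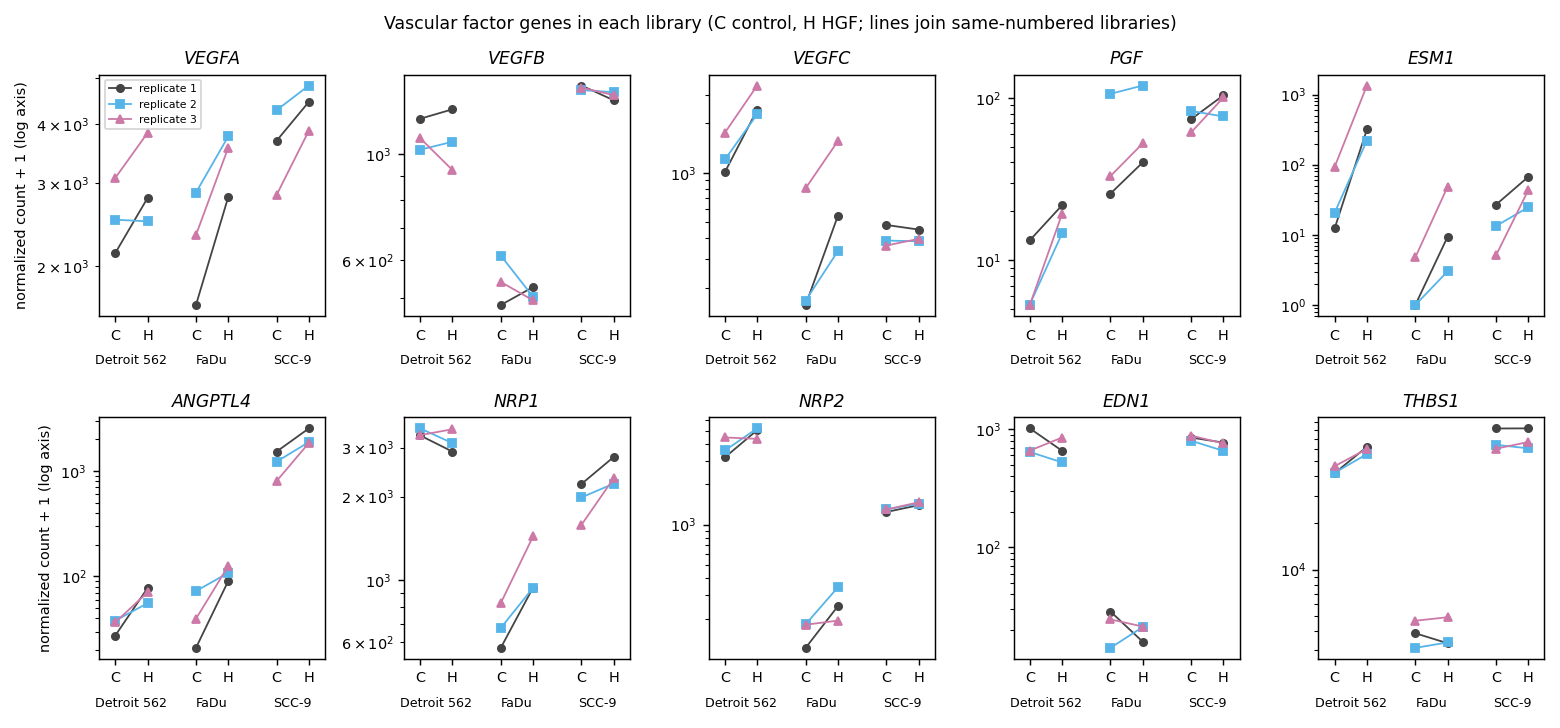
Normalized counts plus 1 on a log axis for the 10 genes in each of the 18 libraries, control (C) and HGF (H), with lines joining libraries of the same line and replicate number. ESM1 lines slope upwards in 9 of 9 pairs, and replicate 3 starts and ends highest for ESM1 in Detroit 562 and FaDu.

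ESM1 was the member with the largest response. In Detroit 562 its raw counts were 12, 18 and 85 in the control libraries and 319, 193 and 1101 in the HGF libraries of the same numbers. All HGF libraries were above all control libraries, and replicate 3 was the highest of its group both without and with HGF. The ratios within the same-numbered pairs were 27.9, 11.2 and 14.6. Replicate 3 had 5.93 times the mean of replicates 1 and 2 among the controls and 5.01 times with HGF, so the difference between replicates was carried through the treatment. The log2 fold change of 3.95 (SE 0.84, adjusted p = 0.00432) kept its call when any of the 18 libraries was left out.

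In FaDu the ESM1 counts were 0, 0 and 4 in the controls and 9, 2 and 49 with HGF. Each HGF library was above its own control, but the HGF library with 2 counts was below the third control, so the groups overlapped. The summed counts of 4 and 60 give a ratio of 15.0 after scaling, with an exact interval of 5.58 to 57.0 that covers counting error only. The main fit had an adjusted p of 0.618 for ESM1 in FaDu, and the blocked fit called it (log2 3.82, SE 0.67, adjusted p = 0.00225). The blocked call was lost without the third pair of libraries (adjusted p = 0.104).

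In SCC-9 the ESM1 counts were 27, 13 and 4 in the controls and 69, 25 and 43 with HGF. Each pair was higher with HGF, by 2.55, 1.91 and 10.4 times, while the groups overlapped because the first control was above the second HGF library. The summed counts of 44 and 137 give a ratio of 3.07 (2.17 to 4.41, counting error only). The main fit had an adjusted p of 1.0 and the blocked fit called it (log2 1.63, SE 0.33, adjusted p = 0.0133), again not without the third pair (adjusted p = 0.153). The high replicate 3 of Detroit 562 and FaDu was not seen in SCC-9, where the third control was the lowest.

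ANGPTL4 was the only other gene of the 10 that was higher in all pairs of all lines. In Detroit 562 its normalized counts were 26.5, 37.0 and 35.6 in the controls and 76.4, 54.6 and 69.5 with HGF, without overlap. The log2 fold change was 1.03 (SE 0.38, adjusted p = 0.0572). This call was lost on leaving out control 1, control 2, HGF 1 or HGF 3 of Detroit 562 (adjusted p = 0.201, 0.105, 0.141 and 0.129). In FaDu ANGPTL4 was at 19.99, 71.5 and 38.6 in the controls and 89.2, 107 and 124 with HGF, again without overlap. The main fit did not call the log2 fold change of 1.31 (SE 0.34, adjusted p = 0.388), while the blocked fit did (log2 1.33, adjusted p = 0.00394), as did DESeq2 with its fold change prior (adjusted p = 0.0163). In SCC-9, where its level was highest, it was at 1523, 1222 and 800 in the controls and 2527, 1874 and 1841 with HGF. The lowest HGF library was above the highest control there too. The log2 fold change of 0.82 (SE 0.25) had an adjusted p of 0.868, and the blocked fit called it (log2 0.84, adjusted p = 0.00251). The blocked calls in FaDu and SCC-9 stayed when any 1 pair was left out, and that in Detroit 562 was lost without the first pair (adjusted p = 0.143).

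VEGFC, the ligand known for lymphatic vessels, was called in Detroit 562 and FaDu by the blocked fit. In Detroit 562 it was at 1013, 1207 and 1758 in the controls and 2423, 2278 and 3405 with HGF. All HGF libraries lay above all controls, and each pair was higher with HGF, by 2.39, 1.89 and 1.94 times. The log2 fold change of 1.03 (SE 0.52) was not called by the main fit (adjusted p = 0.156), and the blocked fit called it (log2 1.04, SE 0.10, adjusted p = 2.36e-06). Because the spread is shared, the unblocked fit also called it when control 3 or HGF 3 of FaDu was left out (adjusted p = 0.0536 and 0.0821), as did a fit of the Detroit 562 libraries alone (adjusted p = 0.0248). In FaDu VEGFC was at 156, 166 and 806 in the controls and 548, 334 and 1562 with HGF. The third control was above both of the other HGF libraries, and yet every pair was higher, by 3.51, 2.01 and 1.94 times. The main fit had an adjusted p of 0.619, and the blocked fit called it (log2 1.21, SE 0.13, adjusted p = 6.74e-05), and the unblocked fit called it without control 3 of FaDu (log2 2.34, adjusted p = 0.0966). In SCC-9 the values of 481, 387 and 361 without and 451, 383 and 396 with HGF did not separate (log2 0.00018, SE 0.55 without the block). Replicate 3 was the highest VEGFC library in both groups of Detroit 562 and of FaDu, as for ESM1, with 5.00 times the mean of the other controls in FaDu.

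VEGFA was at 2127, 2504 and 3069 in the Detroit 562 controls and 2784, 2484 and 3824 with HGF, which overlapped (log2 0.24, SE 0.21, adjusted p = 0.421). In FaDu it was at 1651, 2858 and 2323 in the controls and 2796, 3759 and 3558 with HGF. Each FaDu pair was higher with HGF, by 1.69, 1.32 and 1.53 times, with the second control above the first HGF library. The log2 fold change of 0.57 (SE 0.21) had an adjusted p of 0.546, and the blocked fit called it (log2 0.59, SE 0.08, adjusted p = 0.00033). In SCC-9 VEGFA was higher in 3 of 3 pairs, by a log2 of 0.29 (SE 0.20) that neither fit called. VEGFB was within 0.11 log2 of its controls in every line, with the groups of SCC-9 apart in the downward direction by a log2 of -0.06. PGF was near the floor of detection in Detroit 562, with raw counts of 13, 4 and 4 in the controls and 21, 12 and 15 with HGF. The sums of 21 and 48 give a ratio of 2.45 (1.44 to 4.31, counting error only), which the main fit did not call (adjusted p = 0.193) and the blocked fit did (log2 1.29, adjusted p = 0.0155). Without control 2 of FaDu the unblocked fit called it too (adjusted p = 0.0891). In FaDu and SCC-9 the PGF changes of log2 0.37 and 0.37 were called by neither fit.

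The neuropilins responded in FaDu. NRP1 was at 571, 674 and 828 in the FaDu controls and 942, 940 and 1438 with HGF, and NRP2 at 120, 180 and 179 and then 246, 341 and 192. The groups did not overlap for either gene, although the third pair of NRP2 differed by only 1.07 times. The log2 fold changes were 0.68 (SE 0.17) and 0.70 (SE 0.19). The main fit called neither (adjusted p = 0.388 and 0.436). The blocked fit called both (adjusted p = 0.000176 and 0.0258), as did DESeq2 with its prior (adjusted p = 0.0243 and 0.0409). The blocked call of NRP2 was lost without the first or the second pair, and the unblocked fit called NRP1 without control 3 of FaDu (log2 0.83, adjusted p = 0.0993). In Detroit 562 NRP1 was at 3318, 3518 and 3325 in the controls and 2903, 3113 and 3493 with HGF, which overlapped (log2 -0.10, SE 0.16). NRP2 there went from 3172, 3568 and 4459 to 5058, 5211 and 4351, a log2 of 0.39 (SE 0.16, adjusted p = 0.0818) that lay just under the minimum of 0.4, and it was called without control 3 (log2 0.53) or HGF 3 (log2 0.46) of Detroit 562. The blocked fit called NRP2 there without the third pair (log2 0.61, adjusted p = 0.000161). In SCC-9 NRP1 was at 2220, 1987 and 1583 and then 2776, 2225 and 2328, and NRP2 was higher by a log2 of 0.16. The SCC-9 groups did not overlap for either gene and neither fit called them, except NRP1 in the blocked fit without the second pair (log2 0.44, adjusted p = 0.0292).

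EDN1 and THBS1 made up the remainder. EDN1 was at 1017, 641 and 659 in the Detroit 562 controls and 657, 524 and 850 with HGF, and its log2 differences of -0.19, -0.22 and -0.21 in Detroit 562, FaDu and SCC-9 were not called by either fit. In Detroit 562 EDN1 was called lower by the blocked fit without the third pair (log2 -0.47, adjusted p = 0.00298). All SCC-9 libraries with HGF were below the SCC-9 controls, as for 9.12% of all genes. THBS1, the most abundant of the 10, was at 41981, 42234 and 46572 in the Detroit 562 controls and 62098, 55704 and 60161 with HGF. The groups were apart, and the pairs rose by 1.48, 1.32 and 1.29 times. The log2 fold change was 0.44 (SE 0.16, adjusted p = 0.0539). The call was lost on leaving out control 1, control 2, HGF 1 or HGF 3 of Detroit 562 (adjusted p = 0.164, 0.144, 0.117 and 0.12), and in the blocked fit without the first pair, where the log2 of 0.38 was under the minimum. In FaDu THBS1 was at 3874, 3116 and 4667 and then 3338, 3379 and 4918, and in SCC-9 at 81613, 64008 and 60439 and then 81771, 60740 and 66733. The log2 fold changes there were -0.0029 (SE 0.16) and 0.02 (SE 0.16).

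**Figure D2:**
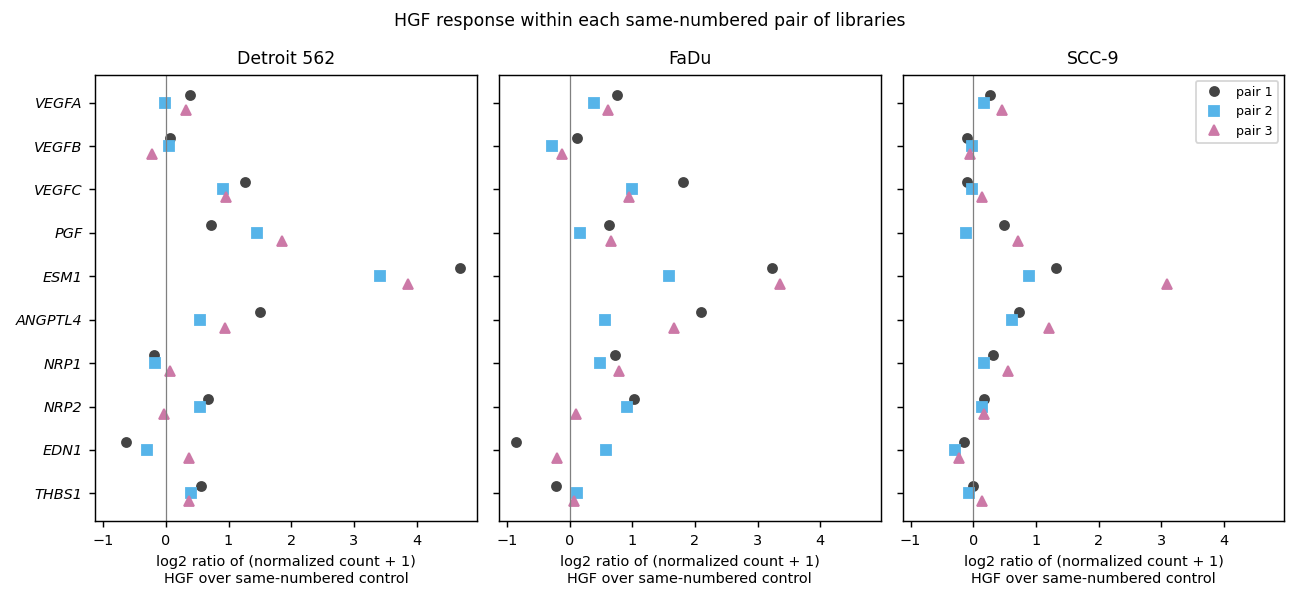
Log2 ratio of normalized count plus 1, HGF over the control of the same replicate number, for the 10 genes in each line, with a symbol for each of the 3 pairs. For ESM1 and ANGPTL4 all 9 symbols lie to the right of 0, while those of VEGFB and EDN1 fall on both sides.

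Counted together, 3 of the 10 genes were called higher and 0 lower in Detroit 562, where 17.9% of all genes tested were called and 6.16% of all genes tested were called higher. The blocked fit called 5 higher, beside 7.13% of all genes. In FaDu the main fit called 0 of the 10, with 1247 genes of the whole table at an unadjusted p under 0.05, and 0.0258% of all genes were called. DESeq2 with its prior called 3, and the blocked fit called 6 higher beside 5.6% of all genes called, 2.0% higher and 3.6% lower. In SCC-9 the main fit called 0 of the 10 and 0% of all genes, with 641 genes at an unadjusted p under 0.05, DESeq2 also called 0 of the 10, and the blocked fit called 2 higher beside 1.97% of all genes, 0.562% higher and 1.41% lower. ESM1 and ANGPTL4 were called higher by the blocked fit in all 3 lines, as were 0.22% of all genes. A rise in 9 of 9 pairs, as both showed, occurred in 7.7% of all genes. The median log2 fold change of the 10 genes was 0.41, 0.62 and 0.22 in Detroit 562, FaDu and SCC-9, beside -0.0056, -0.0039 and 0.0013 over all genes tested. Groups that did not overlap, with HGF above control, were seen in 5, 3 and 3 of the 10 genes and in 18.1%, 4.05% and 8.3% of all genes. The exact permutation test of 3 libraries against 3 can give no p below 0.1 (two-sided), and this was its value for each of these genes.

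**Figure D3:**
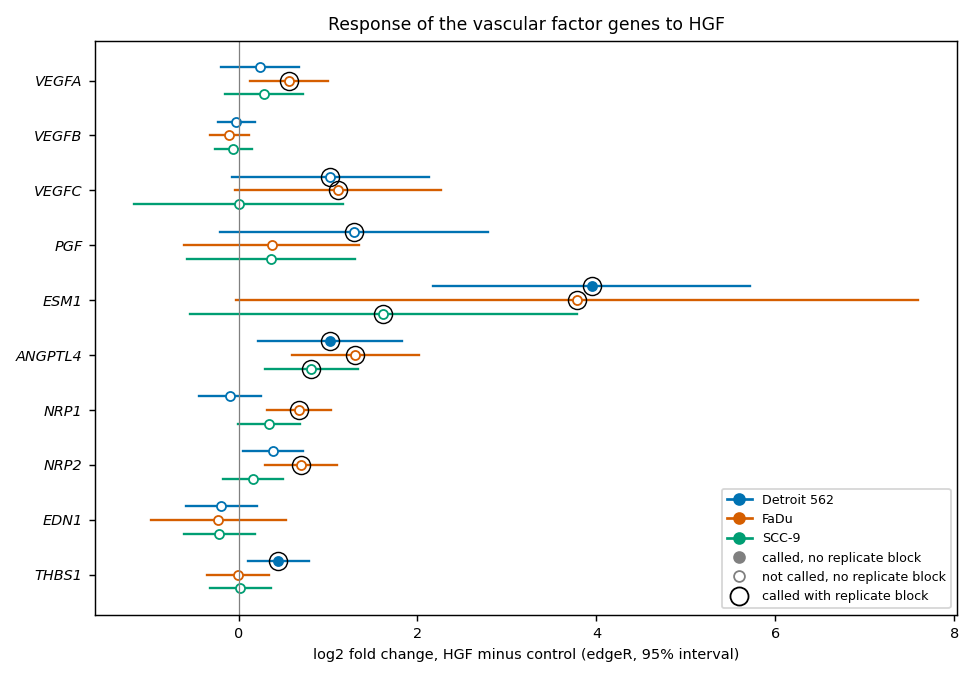
Log2 fold change with HGF for the 10 genes in each line, with 95% intervals from the edgeR fit without the replicate block. Filled points were called in that fit (3 in Detroit 562) and black rings mark the calls of the blocked fit (5, 6 and 2 in Detroit 562, FaDu and SCC-9).

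Averaged over the 3 lines, the HGF response was called for ESM1 (log2 3.12, SE 0.71, adjusted p = 0.00924), ANGPTL4 (log2 1.05, SE 0.19, adjusted p = 0.00348) and NRP2 (log2 0.42, SE 0.10, adjusted p = 0.0111). In this comparison 6.89% of all genes were called, 2.02% higher and 4.88% lower, and 8.8% by the blocked fit, 2.57% higher and 6.23% lower. ESM1 and ANGPTL4 kept the call without any 1 library. NRP2 fell under the minimum fold change in 4 of these 18 fits, without control 1 or HGF 2 of Detroit 562 and without control 1 or HGF 2 of FaDu, at a log2 of 0.38, 0.40, 0.36 and 0.34. VEGFC (log2 0.75) and PGF (log2 0.69) were added by the blocked fit (adjusted p = 1.59e-06 and 0.00322). VEGFA and NRP1 had adjusted p values of 0.042 and 0.0328 at log2 fold changes of 0.36 and 0.31, under the minimum.

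Whether the response differed between lines was tested by the interaction of line and treatment, at an adjusted p below 0.1 alone. The main fit called 0 of the 10 genes in each of the 3 interactions, in which 0.239% (Detroit 562 against FaDu), 0.924% (Detroit 562 against SCC-9) and 0% (FaDu against SCC-9) of all genes were called. Of these 0.103% and 0.446% were higher and 0.136% and 0.478% lower in the first and second. At an unadjusted p under 0.05 these interactions held 1788, 2378 and 337 genes. The blocked fit called 19.1% (10.1% higher, 8.98% lower), 26.9% (13.8% and 13.2%) and 1.32% (0.808% and 0.511%) of all genes. By the blocked fit the response of NRP1 was lower in Detroit 562 than in FaDu by a log2 of -0.77 (adjusted p = 0.000842) and than in SCC-9 by -0.45 (adjusted p = 0.00949). The first of these was also called by DESeq2 with its prior (adjusted p = 0.0693). VEGFC responded more in Detroit 562 and in FaDu than in SCC-9, by 1.04 (adjusted p = 0.000772) and 1.20 (adjusted p = 0.00705). ESM1 responded more in Detroit 562 than in SCC-9, by 2.34 (adjusted p = 0.00269). THBS1 responded more in Detroit 562 than in FaDu, by 0.45 (adjusted p = 0.00601), and than in SCC-9, by 0.42 (adjusted p = 0.00514), and VEGFA less in Detroit 562 than in FaDu, by -0.35 (adjusted p = 0.0519). The ANGPTL4 response did not pass in any pair of lines, with blocked differences of -0.30, 0.19 and 0.49.

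The levels without HGF were compared per kilobase of annotated exon, so that genes could be ordered. The reads were counted over whole gene extents, introns included, so these levels hold intronic reads too. THBS1 was the highest of the 10 in each line, at 4760 ± 282 (SD, n = 3) normalized counts per kilobase for Detroit 562, 424 ± 84.7 for FaDu and 7500 ± 1238 for SCC-9. VEGFB had the next mean in each line, at 555 ± 41.9, 277 ± 33.0 and 697 ± 7.63. The order depends on the exon length used, which was 14431 bases for VEGFA and 1970 for VEGFB. Before this division VEGFA was above VEGFB in each line. The mean normalized counts were 2567 against 1093 in Detroit 562, 2277 against 546 in FaDu and 3594 against 1372 in SCC-9. In Detroit 562 VEGFC (507 ± 148) was within its spread of VEGFB, and EDN1 (380 ± 104) within its spread of VEGFC. NRP1 (294 ± 9.82), NRP2 (269 ± 47.5) and VEGFA (178 ± 32.9) came after them. ESM1 (15.2 ± 16.4) and ANGPTL4 (13.3 ± 2.32) did not differ beyond their spread, and PGF was last at 1.20 ± 0.79. In FaDu VEGFA (158 ± 41.9) and VEGFC (144 ± 142) were next and not separated by their spread. NRP1 was at 60.0 ± 11.2, and ANGPTL4, NRP2, EDN1 and PGF lay between 9.27 and 17.5. ESM1 was last in FaDu at 0.47 ± 0.81. In SCC-9 ANGPTL4 followed at 478 ± 147, beside EDN1 at 415 ± 20.9 and VEGFA at 249 ± 50.4. NRP1 (167 ± 28) and VEGFC (157 ± 24.3) were within their spread, NRP2 was at 92.0 ± 2.34, PGF at 12.4 ± 1.87, and ESM1 again last at 5.25 ± 4.09.

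**Figure D4:**
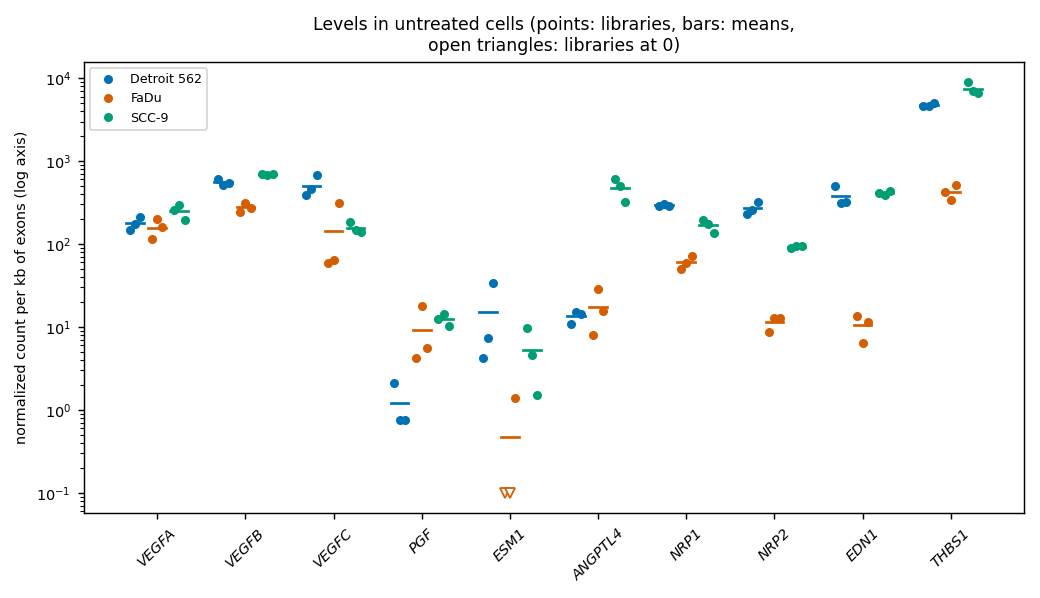
Normalized counts per kilobase of exon in untreated cells on a log axis, with a point for each library, a bar at the mean of 3 libraries, and open triangles at the foot for FaDu libraries with 0 ESM1 counts. EDN1, NRP2 and THBS1 of FaDu sit far below the other lines, and ANGPTL4 of SCC-9 far above.

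Between untreated lines, 8 of the 10 genes were called in Detroit 562 against FaDu, 7 in Detroit 562 against SCC-9 and 7 in FaDu against SCC-9. The shares of the tested genes called were 61.0% (31.2% higher, 29.8% lower), 65.4% (31.4% and 33.9%) and 64.2% (30.7% and 33.5%). The EDN1 libraries of Detroit 562 were at 1017, 641 and 659, those of FaDu at 27.6, 13.1 and 23.5 and those of SCC-9 at 850, 798 and 883. It was 35.7 times higher in Detroit 562 than in FaDu (log2 5.16, SE 0.26) and lower in FaDu than in SCC-9 by a log2 of -5.28 (SE 0.26), with no call between Detroit 562 and SCC-9 (adjusted p = 0.55). NRP2 was 23.4 times higher in Detroit 562 than in FaDu (log2 4.55, SE 0.19) and 2.92 times higher than in SCC-9, and NRP1 was 4.90 and 1.75 times higher. THBS1 was 11.2 times higher in Detroit 562 than in FaDu (log2 3.49, SE 0.18) and lower than in SCC-9 by a log2 of -0.66 (SE 0.16). ANGPTL4 was lower than in SCC-9 by a log2 of -5.17 (SE 0.33) in Detroit 562 and -4.78 (SE 0.32) in FaDu, and between Detroit 562 and FaDu it was not called (adjusted p = 0.39).

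Of the VEGF ligands, VEGFC was highest in Detroit 562, 3.51 times over FaDu and 3.23 times over SCC-9 (adjusted p = 0.00688 and 0.00965), and FaDu and SCC-9 were not called apart (adjusted p = 0.851). PGF was lower in Detroit 562 than in FaDu by a log2 of -2.88 (SE 0.62) and than in SCC-9 by -3.30 (SE 0.60). VEGFB was 2.00 times higher in Detroit 562 than in FaDu. VEGFA was not called between Detroit 562 and FaDu (log2 0.17), and SCC-9 was above Detroit 562 (log2 -0.49, SE 0.21, adjusted p = 0.0411) and above FaDu (log2 -0.66, SE 0.21, adjusted p = 0.00842). The first of these was lost without control 1 of Detroit 562 (adjusted p = 0.159) or control 2 of SCC-9 (adjusted p = 0.185). ESM1 was called higher in Detroit 562 than in FaDu (log2 4.84, SE 1.61, adjusted p = 0.0125), and not without control 3 of Detroit 562 (log2 3.45, adjusted p = 0.112), the library with 85 counts. Single libraries also decided calls that were absent from the full fit. ANGPTL4 was lower in Detroit 562 than in FaDu without control 1 of FaDu (log2 -0.73, adjusted p = 0.0839). Against SCC-9, FaDu was lower in VEGFC without its control 3 (log2 -1.35, adjusted p = 0.0211) and in PGF without its control 2 (log2 -1.33, adjusted p = 0.00981). ESM1 was called lower in FaDu than in SCC-9 in 4 of the fits without a library, and by DESeq2 (adjusted p = 0.073).

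Further genes of these pathways were taken from lists. Of the VEGF receptors, FLT1, KDR and FLT4 (VEGFR1, VEGFR2 and VEGFR3) were at the floor of detection, with at most 25 counts in any library, and 0 of 3 was called with HGF in any line. KDR, which transmits most VEGFA signals in endothelial cells, had 0 counts in all 6 FaDu libraries. Among 8 plexins and class 3 semaphorins, the partners of the neuropilins, PLXND1 (log2 -0.63, SE 0.15) and SEMA3F (log2 -0.79, SE 0.19) were lower in Detroit 562. Of the 8, 0 were higher, and of all genes 11.7% were called lower and 6.16% higher. In FaDu the blocked fit called SEMA3C higher (log2 0.43) and SEMA3F lower (log2 -0.59), beside 2.0% and 3.6% of all genes. In Detroit 562, 2 of 16 other angiogenic growth factors tested were called higher and 3 lower, beside 6.16% and 11.7% of all genes. These were the fibroblast growth factor FGF1 (log2 1.60, SE 0.40, adjusted p = 0.00967) and the peptide APLN (log2 1.99, SE 0.68, adjusted p = 0.0408), with at most 28 and 29 counts in a Detroit 562 library. PDGFD, ANGPT1, which is the ligand of the receptor TEK, and EFNA1 were called lower (log2 -0.68, -0.80 and -0.58). In FaDu the blocked fit called APLN (log2 1.48) and the chemokine CXCL8 (log2 1.06) higher and FGF1 (log2 -0.85) and PDGFD (log2 -0.41) lower. In SCC-9 it called EFNA1 lower (log2 -0.58), beside 1.41% of all genes. ANGPT2 and HGF did not pass the filter on low counts.

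Of 7 inhibitors of angiogenesis besides THBS1 tested, 4 were called lower in Detroit 562 and 0 higher, where 11.7% of all genes were called lower. They were COL18A1, the source of endostatin (log2 -0.67, SE 0.23), SERPINF1, which encodes PEDF (log2 -0.54, SE 0.19), VASH1 (log2 -1.51, SE 0.50) and TNFSF15 (log2 -1.15, SE 0.15). THBS1, itself known as an inhibitor, was called higher in Detroit 562 (log2 0.44). The list was drawn up with earlier results of these data known. In the blocked fit ADAMTS1, a protease that binds VEGFA, was called higher in Detroit 562, FaDu and SCC-9 (log2 0.71, 1.06 and 0.41), beside 7.13%, 2.0% and 0.562% of all genes. That fit called CXCL10 lower in FaDu and SCC-9 (log2 -2.08 and -1.24), beside 3.6% and 1.41%. In the endothelin system, of 4 genes tested, the receptor EDNRA was called higher in Detroit 562 (log2 0.77, SE 0.25) and the ligand EDN2 lower (log2 -2.43, SE 0.91). These stand beside 6.16% and 11.7% of all genes. The blocked fit also called EDNRA higher in FaDu (log2 0.87), beside 2.0%. Of 3 other thrombospondin family genes and receptors tested, THBS3 was called lower in Detroit 562 (log2 -0.89), beside 11.7% of all genes. The blocked fit added THBS4 (log2 -0.69), beside 14.4%. Of the ANGPTL family besides ANGPTL4, 2 genes passed the filter and 0 were called in any line.

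Lists of genes known to change together with members were examined in the same way. Of 4 PPAR targets, the group to which ANGPTL4 belongs, 0 were called in any line. Of 10 hypoxia genes, BNIP3 was called higher in Detroit 562 (log2 1.09, SE 0.21), beside 6.16% of all genes. The blocked fit called DDIT4 lower there (log2 -0.95), beside 14.4%, and 0 were called in FaDu and SCC-9 by either fit. Of 10 feedback genes of the ERK pathway, 9 were called higher in Detroit 562, 1 (DUSP6, log2 1.44) in FaDu and 0 in SCC-9, beside 6.16%, 0.0258% and 0% of all genes. The blocked fit called 9, 7 and 7 of the 10 higher, beside 7.13%, 2.0% and 0.562% of all genes. The median log2 fold change of these 10 genes was 1.06, 0.79 and 0.51 in Detroit 562, FaDu and SCC-9. Of 5 fibroblast markers tested, 2, COL1A1 and COL1A2, were called lower in Detroit 562, beside 11.7% of all genes. Of 2 leukocyte markers tested, CD68 was called higher there (log2 0.66), beside 6.16% of all genes. The other, CD14, was lower and not called, and the median log2 of the 2 was 0.10.

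**Figure D5:**
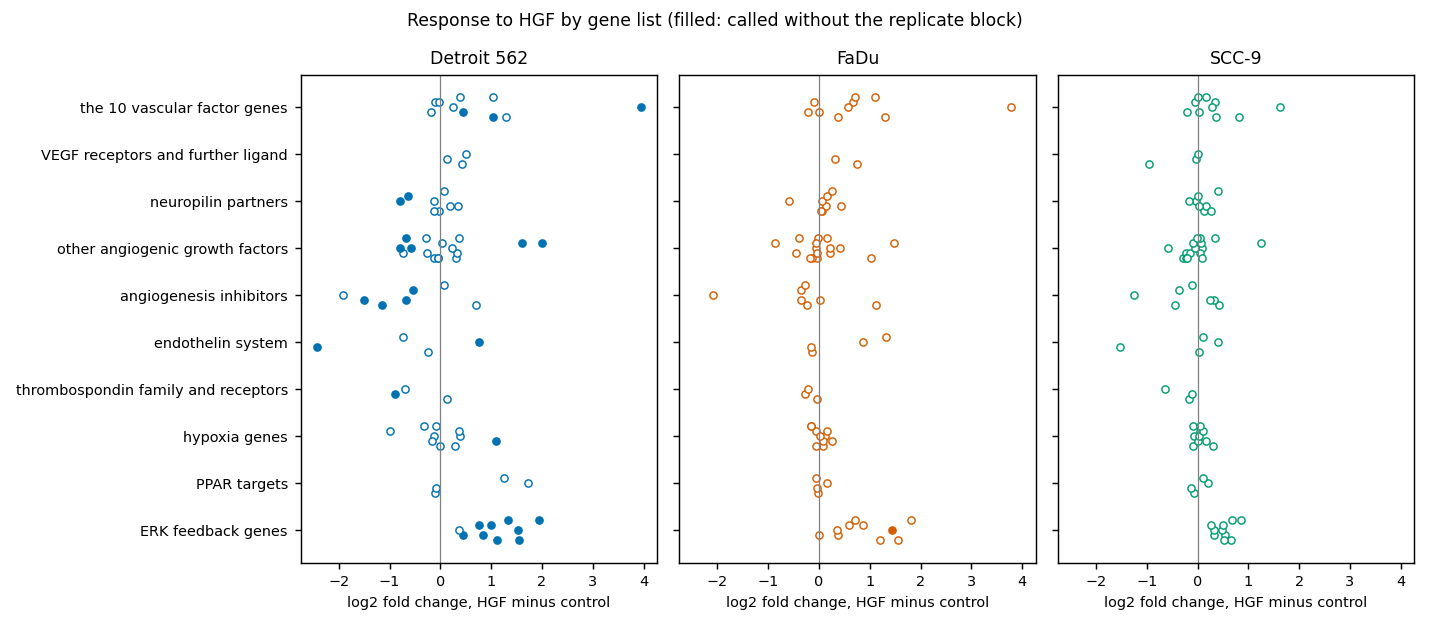
Log2 fold change with HGF for the 10 genes and for the tested genes of 9 lists, a point per gene, in each line. Filled points were called without the replicate block: the ERK feedback genes lie to the right of 0 in each line, and 4 of 7 angiogenesis inhibitors besides THBS1 are filled to the left of 0 in Detroit 562.

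The likeness of expression patterns was measured by Pearson's r over the 18 libraries, on log2 library-scaled counts from which the mean of each line had been subtracted. It is a description, and the libraries share treatment, line and replicate number. The genes most like ESM1 were DCBLD2 (r = 0.98), PLEK2 (r = 0.98) and ANTXR2 (r = 0.98). Those most like ANGPTL4 were IL24 (r = 0.94), CORO1A (r = 0.91) and DLX1 (r = 0.88). Those most like THBS1 were CTD-2370N5.3 (r = 0.89), NFE2L3 (r = 0.89) and BMX (r = 0.87). Within the 10 genes the closest were VEGFA and ANGPTL4 (r = 0.85) and VEGFC and ESM1 (r = 0.80), and the least alike were ANGPTL4 and EDN1 (r = -0.51).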

How the data were processed

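The authors prepared stranded mRNA libraries. Per the submitters' processing notes, cutadapt 1.16 was used for trimming, STAR 2.5.2b for alignment to GRCh38 and bedtools for counting. The deposited table holds unnormalized counts. Every gene whose extent on the same strand overlapped a read, introns included, received that read, and 0 of the 10 members overlap another gene on their strand. Total counts were 35304770 to 44003970 per library.

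Counts were analysed with edgeR 4.0.16 in R 4.3.3 (filterByExpr, TMM, quasi-likelihood test, 1 mean per line and treatment, 18 libraries), with DESeq2 1.42.0 as an alternative. SE values are the log2 fold change over the root of F. Normalized counts are scaled to 40094689. Groups followed the sample titles. Exon lengths came from GENCODE.

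The replicate numbers were taken to pair the libraries. Deviations from the group mean were correlated over genes between control and HGF libraries. Those of the same number gave 0.161 to 0.454 in Detroit 562, 0.376 to 0.563 in FaDu and 0.203 to 0.332 in SCC-9. Different numbers averaged -0.144, -0.227 and -0.136. Subtracting the group mean itself makes these averages negative where same-numbered libraries correlate, so they are no separate evidence of pairing. In Detroit 562 control 1 against HGF 2 gave 0.218, above the 0.161 of the second pair. The study's methods describe repeated experiments, and p-values of the unblocked fit measure the spread between them. Those of the blocked fit measure only how the difference between HGF and control varied from pair to pair. The fits were tested on simulated data with 200 genes changed by a log2 of 1 in Detroit 562. With no replicate effect, the unblocked and blocked fits recovered 85.0% and 83.5% of them, and 7.61% and 10.7% of calls were false. With a replicate effect of SD 0.3 they recovered 36.5% and 82.0%, and 1.35% and 10.4% of calls were false. That effect was placed within line and replicate number, so the simulation cannot test the pairing itself.

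All members are named, and other genes as members of their list. The members and lists were chosen with earlier results of these data known. The lists are VEGF receptors, neuropilin partners, other angiogenic growth factors, angiogenesis inhibitors, the endothelin system, thrombospondin and ANGPTL families, PPAR targets, hypoxia genes, ERK feedback genes and cell type markers. The alternatives were the replicate block, other scalings and filters, DESeq2, other thresholds, 1 line alone and each library left out. A shared replicate factor and the blocked fit without each pair were chosen after seeing the data.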

Additional observations from a re-analysis of the deposited data

Results flagged for a closer look

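The responses of 5 genes to HGF differed between lines by the interaction test of the blocked fit, at an adjusted p below 0.1, and 0 of the 10 genes did in the fit without the block. NRP1 differed between Detroit 562 and FaDu by a log2 of -0.77 and between Detroit 562 and SCC-9 by -0.45. It was higher with HGF in 3 of 3 pairs of FaDu and of SCC-9 and in 1 of 3 pairs of Detroit 562. THBS1 differed by 0.45 and 0.42 in the same comparisons, with 3 of 3 pairs higher in Detroit 562 and 2 of 3 in FaDu and in SCC-9. VEGFC differed between Detroit 562 and SCC-9 by 1.04 and between FaDu and SCC-9 by 1.20, with 3 of 3, 3 of 3 and 1 of 3 pairs higher in Detroit 562, FaDu and SCC-9. ESM1 differed between Detroit 562 and SCC-9 by 2.34, with all pairs higher in both. VEGFA differed between Detroit 562 and FaDu by -0.35, with 2 of 3 and 3 of 3 pairs higher. In these comparisons the blocked fit called 19.1%, 26.9% and 1.32% of all genes (Detroit 562 against FaDu, Detroit 562 against SCC-9, FaDu against SCC-9), so the flags of the first and second are read against that background.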

How the results depend on the processing

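Of the 10 genes, the number called changed in these settings. The replicate block gave 5 in Detroit 562 in place of 3, 6 in FaDu and 2 in SCC-9 in place of 0, and 5 for the average in place of 3. It gave 3, 4 and 1 for the differences in response (Detroit 562 against FaDu, Detroit 562 against SCC-9, FaDu against SCC-9) in place of 0. A replicate factor shared by the lines gave 5 for the average, as did no minimum fold change. DESeq2 with or without its prior gave 3 in FaDu and 1 for the first difference. The libraries of a line alone gave 5 in Detroit 562. Smaller changes were 4 for the average with DESeq2 with or without its prior, 4 in Detroit 562 with the shared factor, DESeq2 without its prior or no minimum fold change, 8 in place of 7 for untreated FaDu against SCC-9 with DESeq2, the shared factor or the lines alone, 8 in place of 7 for untreated Detroit 562 against SCC-9 with no minimum, and 2 for the average and 6 for untreated FaDu against SCC-9 under the stricter threshold. That threshold (adjusted p below 0.05, log2 of 1) also gave 1 in Detroit 562 and 4 in place of 7 for untreated Detroit 562 against SCC-9. These counts stand beside shares of all genes. The shared factor called 19.6% of all genes in Detroit 562 and 7.64% for the average, and the replicate block 21.5% in Detroit 562. With no minimum fold change, 5276 of 15475 genes were called in Detroit 562 and 4366 for the average. No paired analysis was possible because the block within a line absorbs the line for untreated lines against each other, other than by the shared factor. Leaving out each library gave 1 to 4 in Detroit 562, 0 to 2 in FaDu and 2 to 5 for the average.

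Over all genes, the calls in Detroit 562 were 2766, and 621 under the stricter threshold or 5276 with no minimum. In FaDu they were 4, and 867 with the block, 45 with the shared factor and 64 with DESeq2 and its prior. In SCC-9 they were 0, and 305, 7 and 16. For the average they were 1067, and 118 and 4366 under the stricter threshold and with no minimum. For the differences they were 37, 143 and 0, and 2956, 4170 and 204 with the block. For untreated lines they were 9447, 10118 and 9934, and 4983, 5484 and 5437 under the stricter threshold.

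Some uncalled values near 0 changed sign. THBS1 in FaDu was 0.00128 with the shared factor, 0.00443 with DESeq2 size factors, 0.00636 with no filter, 0.00473 with at least 50 counts in 3 libraries, 0.00446 and 0.0045 with DESeq2 with and without the prior, and 0.0044 in the line alone. VEGFC in SCC-9 was -0.0176 with the shared factor, -0.00673 with upper-quartile factors and -0.000601 with at least 50 counts. For the differences, EDN1 was -0.000427 with DESeq2 and its prior (Detroit 562 against FaDu), and for FaDu against SCC-9 it was 0.0030, 0.000189 and 0.0104 with the shared factor, no filter and DESeq2 with its prior, where PGF was -0.0187 with the shared factor.

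Without 1 library, log2 values that changed sign ranged as follows. In Detroit 562 VEGFB was -0.14 to 0.0714 and EDN1 -0.388 to 0.0564. In FaDu PGF was -0.243 to 1.28 and THBS1 -0.199 to 0.15. In SCC-9 VEGFC was -0.0839 to 0.135 and THBS1 -0.107 to 0.167. For Detroit 562 against FaDu the response differed by -0.0388 to 0.173 for VEGFB, -1.31 to 0.794 for VEGFC, -3.33 to 2.00 for ESM1, -0.83 to 0.0671 for ANGPTL4 and -0.19 to 0.281 for EDN1. For Detroit 562 against SCC-9 it differed by -0.247 to 0.106 for VEGFA, -0.0846 to 0.128 for VEGFB, -0.0104 to 0.433 for ANGPTL4 and -0.174 to 0.27 for EDN1. For FaDu against SCC-9 it differed by -0.125 to 0.046 for VEGFB, -0.61 to 0.915 for PGF, -0.257 to 0.211 for EDN1 and -0.221 to 0.128 for THBS1. Untreated Detroit 562 against FaDu was -0.0127 to 0.369 for VEGFA and -0.735 to 0.162 for ANGPTL4, and untreated FaDu against SCC-9 was -1.35 to 0.249 for VEGFC. The cause of these changes was not tested. ESM1 in FaDu and PGF in Detroit 562 rest on few counts, which limits their precision.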
